A study of Mus musculus with 21 samples.

Results

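The aldehyde dehydrogenases Aldh1a1, Aldh1a2, Aldh1a3, Aldh1a7, Aldh1l1, Aldh1l2, Aldh2, Aldh3a1, Aldh3a2 and Aldh7a1 were followed through acquired resistance to a MEK inhibitor (MEKi) and its loss after drug withdrawal. These 10 genes were taken by symbol from the 34478 genes of the expression table. RNA was measured by RNA-seq in 6 primary pancreatic cancer cell lines (#3, #4, #6, #7, #9 and #10) from a genetically engineered mouse model. All 21 samples share the alleles Ptf1awt/Cre and, in both copies, Trp53loxP/loxP, so that Cre made from the pancreatic Ptf1a locus removes Trp53. Parental cells (6 samples) had never received a MEKi, and resistant cells (6 samples) were kept in the MEKi trametinib at 100 times the line's IC50, the dose that inhibits growth to the midpoint. Reverting cells were resistant cells grown without drug for 5 passages (P5, 3 samples, lines #3, #7 and #9) or 12 passages (P12, 6 samples). Each line was sequenced once in each state, so the 6 lines are the replicates of a state. The study describes resistant populations as the expansion of a single clone, from whole genome sequencing of lines #3 and #9. For P5 of lines #7 and #9, one label gives 12 drug-free passages where the sample name gives 5. The 2 samples are kept as P5 here, and the comparisons with P5 are also given without them.

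Aldehyde dehydrogenases oxidise aldehydes to carboxylic acids with NAD or NADP. ALDH1A1, ALDH1A2 and ALDH1A3 oxidise retinaldehyde to retinoic acid, the ligand of the nuclear retinoic acid receptors, and high ALDH1 activity is widely used to mark stem-like cells in the pancreas and in its tumours. ALDH2 clears acetaldehyde in mitochondria, ALDH3A1 and ALDH3A2 oxidise aromatic and fatty aldehydes, ALDH1L1 and ALDH1L2 turn 10-formyltetrahydrofolate into tetrahydrofolate and carbon dioxide in the cytosol and in mitochondria, and ALDH7A1 acts in lysine breakdown. Aldh1a7 is a rodent-specific close relative of Aldh1a1.

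Values are normalized read counts, that is, estimated reads per gene divided by a normalization factor. Low values differed between genes of one sample, such as 0.937 for Aldh1b1 and 1.04 for Aldh3b3 in parental line #3. The depth and the floor of 3 reads given next are therefore approximate for each gene. The spacing of low values put the depth at 23.9 to 42.3 M reads per sample, at which 3 reads correspond to between 2.33 and 4.07 normalized counts. Values under that floor are treated as not detected at this depth, and a gene listed at 0 is reported as such. The output of the inhibited pathway was followed by 10 genes induced by ERK signalling (Dusp6, Dusp4, Spry2, Spry4, Spred1, Etv4, Etv5, Phlda1, Egr1 and Fosl1). By the rule given below, 10 of 10 fell in resistant cells, against 2.73% of all genes tested. In P12, 10 of 10 rose again, against 1.28%. They were named after their values were seen, so they describe the states and do not test the labels. Markers of the pancreatic duct (8 genes, among them Krt8, Krt18, Cdh1 and Cldn4) summed to between 18371 and 283872 normalized counts in parental cells, 1693 and 210019 in resistant cells, 3299 and 238332 in P5 and 3930 and 209602 in P12, with line #9 the lowest in every state. Epcam was at a median of 0 in every state and at most 3.61, in a P5 sample. The sum of 8 fibroblast markers ranged from 113 to 10441 in parental, from 1912 to 503995 in resistant, from 380 to 75727 in P5 and from 247 to 124151 in P12 cells. Among these markers Dcn and Col1a1 were at a median of 4.03 and 331 in parental and 36728 and 29184 in resistant cells, while Lum was at a median of 0 in both. The summed levels of leukocyte, endothelial and acinar markers were at most 2892 (resistant), 2757 (resistant) and 950 (P12). The endothelial sum was at a median of 82.0 in parental and 404 in resistant cells. Tek, the 1 of 5 endothelial markers called higher by the rule given below, went from a median of 1.45 to 274. Pecam1 was at 24.3 and 19.1 and Vwf at 13.8 and 14.2. Csf1r reached 2530 in a resistant and Cela1 931 in a P12 sample, while Cd3e and Ptf1a were at a median of 0 in every state. In bulk RNA, fewer cells that express a gene and less RNA per cell cannot be told apart, and the part of these marker shifts in the results on the aldehyde dehydrogenases was not tested.

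Both pairs of neighbours among the 10 genes lie in opposite orientation (GRCm38, GENCODE M21 annotation). Aldh1a1 (chromosome 19, 20492715 to 20643465, plus strand) and Aldh1a7 (20692953 to 20727562, minus strand) are 49487 bases apart, and Aldh3a1 (chromosome 11, 61207537 to 61218421, plus strand) and Aldh3a2 (61223417 to 61267464, minus strand) are 4995 bases apart. Aldh2 lies on chromosome 5 (121566027 to 121593824), Aldh1a2 on chromosome 9 (71215789 to 71296243), Aldh1a3 on chromosome 7 (66390890 to 66427517), Aldh1l1 on chromosome 6 (90486427 to 90600203) and Aldh1l2 on chromosome 10 (83487450 to 83534140). Of all stretches of 31 bases in the Aldh1a7 transcript, 13.8% also occur in transcripts of Aldh1a1, so reads in these stretches could be divided between both genes. None of the other members shares such a stretch with another Aldh gene. Upstream sequence in the RefSeq table for GRCm38.p6 was matched for 5 of the 10 members, and the 250 bases before the start are shown for the retinal-oxidising genes whose levels differed most between lines and for the neighbour Aldh1a7. In the Aldh1a1 sequences, capitals mark the AP-1 motif TGANTCA before the first start (chr19:20492333-20492582, plus strand) and, before a start inside the gene (chr19:20601718-20601967, plus strand), the longest run of letters shared with the Aldh1a7 sequence (chr19:20727557-20727806, minus strand). In the Aldh1a2 sequence (chr9:71215539-71215788, plus strand), capitals mark the antioxidant response element core TGACNNNGC and the CCAAT box. Not marked as motifs are CCAAT 72 bases before the inner Aldh1a1 start and 137 and 72 bases before the Aldh1a7 start. The matches at 72 lie inside the shared run. The TATA box TATAAA, 244 bases before the Aldh1a7 start, is not marked either.
Aldh1a1, first start: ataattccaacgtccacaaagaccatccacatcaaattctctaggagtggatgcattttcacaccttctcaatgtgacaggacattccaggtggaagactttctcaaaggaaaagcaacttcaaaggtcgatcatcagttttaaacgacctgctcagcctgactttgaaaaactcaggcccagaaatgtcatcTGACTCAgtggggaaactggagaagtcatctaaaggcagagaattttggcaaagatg
Aldh1a1, start inside the gene: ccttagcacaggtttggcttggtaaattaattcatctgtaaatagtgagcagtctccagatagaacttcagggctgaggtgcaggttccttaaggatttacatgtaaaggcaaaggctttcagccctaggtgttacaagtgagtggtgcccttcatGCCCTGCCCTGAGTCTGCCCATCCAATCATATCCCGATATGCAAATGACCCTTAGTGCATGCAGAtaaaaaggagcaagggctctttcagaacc
Aldh1a7: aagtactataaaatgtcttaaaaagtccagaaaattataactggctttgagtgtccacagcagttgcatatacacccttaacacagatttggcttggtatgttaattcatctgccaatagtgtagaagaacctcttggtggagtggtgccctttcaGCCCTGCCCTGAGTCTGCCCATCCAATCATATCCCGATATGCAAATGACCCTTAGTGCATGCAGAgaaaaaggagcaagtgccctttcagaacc
Aldh1a2: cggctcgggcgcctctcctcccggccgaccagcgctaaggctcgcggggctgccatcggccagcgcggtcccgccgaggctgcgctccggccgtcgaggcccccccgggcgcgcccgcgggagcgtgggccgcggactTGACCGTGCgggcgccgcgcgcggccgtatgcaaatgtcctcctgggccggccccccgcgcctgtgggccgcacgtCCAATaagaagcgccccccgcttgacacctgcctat
The sequences before the inner Aldh1a1 start and before Aldh1a7 shared an unbroken run of 65 letters, which begins 94 bases before both starts, and matched in 66% of 265 aligned columns. The sequence before the first Aldh1a1 start matched that of Aldh1a7 in 50.9% of 271 columns, with a longest run of 8 letters. The windows before the first Aldh1a1 start and before Aldh1a2 hold no annotated exon bases of their genes, while 7 bases of the inner Aldh1a1 window and 6 of the Aldh1a7 window lie in exons. The first Aldh1a1 start of the RefSeq table lies 132 bases from the closest start annotated in GENCODE, and the inner one 7 bases. Which start these cells use was not tested. On either strand, TGANTCA occurs in 6.75% of 32851 promoter windows of this length, TGACNNNGC in 10.2%, CCAAT in 33.8% and TATAAA in 12.4%. Each match is thus a common one and serves as a description of the letters only.

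The question of the first comparison was which aldehyde dehydrogenases differ between parental and resistant cells. Aldh2, Aldh1a3 and Aldh3a1 fell in resistant cells, Aldh2 by 3.04 to 5.86 times, and Aldh1a3 by 4.83 to 60.7 times across the 6 lines. Aldh1a1 and Aldh1a2 stood 75.8 to 493 times above parental in lines #3, #4 and #6 and much less, or not at all, in the other 3, so that neither passed the test over all lines. Differences were tested with limma on log2(value + 1), fitting the 4 states together and adjusting by Benjamini-Hochberg over 19300 genes, those with at least 10 normalized counts in at least 3 samples. All 10 members passed this filter. This fit does not pair the lines. Its SE and intervals thus reflect the spread between lines within states, not the spread of the 6 line differences. Calls needed both an adjusted p under 0.01 and a log2 fold change beyond 1. By this rule 3 of 10 members were called, all lower in resistant cells, against 5.3% of all genes tested in either direction and 2.73% lower. With the cell line as a block, 4 members were called, all lower, against 10.5% of all genes. The median log2 fold change of the 10 members was -0.35, compared with 0.00 over all genes tested.

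**Figure D1:**
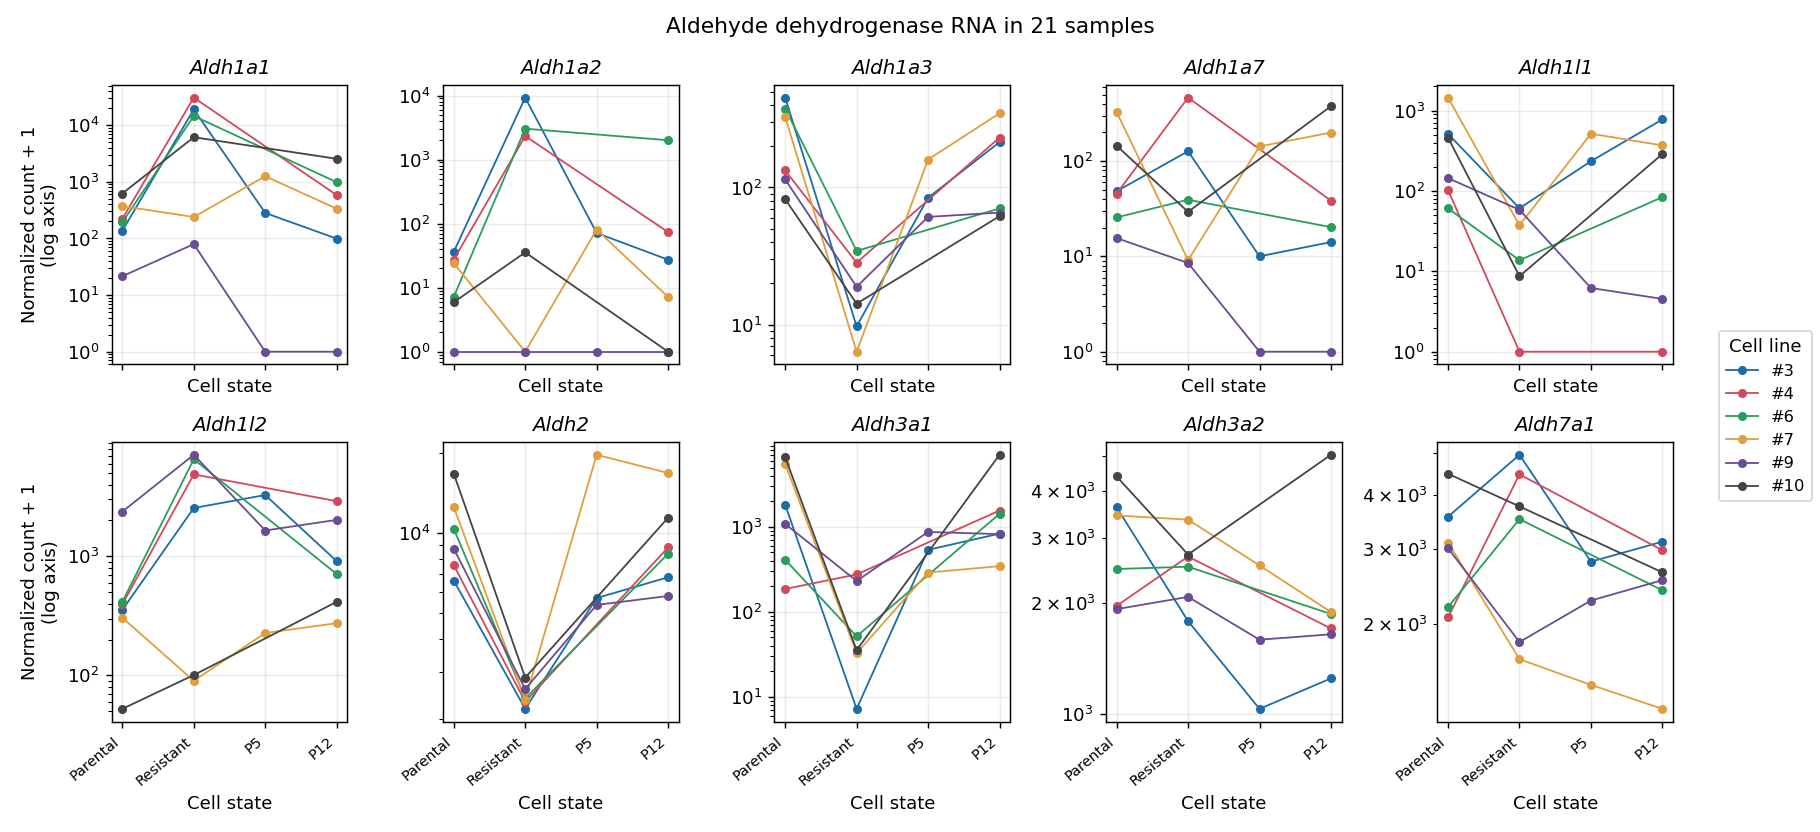
Normalized count + 1 (log axis) of each aldehyde dehydrogenase in 4 cell states, with one panel per gene, one point per sample and lines joining the states of a cell line. Resistant Aldh2 values lie between 2180.0 and 2857 in all 6 lines, while resistant Aldh1a1 values range from 78.5 to 30722.

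Among the retinal-oxidising enzymes, Aldh1a3 fell in every line. Parental Aldh1a3 was 450.3 in line #3, 375 in #6, 326 in #7, 132 in #4, 113 in #9 and 81.0 in #10. In resistant cells it was 8.73, 33.5, 5.36, 27.3, 17.9 and 13.2 in the same order of lines. The highest resistant value lay under the lowest parental one, and the same direction in all 6 lines was seen for 18.5% of all genes tested. The log2 fold change was -3.67 ± 0.56 (SE, n = 6 lines, limma adjusted p = 0.000303), with a 95% interval from -4.84 to -2.50. Groups that did not overlap were found for 5.99% of all genes tested. The call held in all 15 alternative settings, with a highest adjusted p of 0.00577.

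Aldh1a1, whose product is the cytosolic retinaldehyde dehydrogenase, differed widely between lines. Parental Aldh1a1 was 135 in line #3, 221 in #4, 192 in #6, 372 in #7, 20.5 in #9 and 621 in #10. Resistant Aldh1a1 was 19038, 30722, 14555, 238, 78.5 and 6141 in the same order. Lines #3, #4 and #6 were 141, 139 and 75.8 times above their parental cells, #10 was 9.88 times and #9 was 3.83 times above, and #7 was 1.56 times below. Thus 4 of the 6 resistant values exceeded every parental value, and those of #7 and #9 lay within the parental range. The log2 difference of 4.17 ± 1.94 (SE, n = 6, 95% interval 0.12 to 8.22) did not pass the test (limma adjusted p = 0.157, or 0.0133 in the blocked fit). Its adjusted p ran from 0.0110 without line #9 to 0.370 without line #3.

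Aldh1a2, which makes retinoic acid in the embryo and in mesenchyme, was at most 35.2 in parental cells. It was 35.2 in line #3, 26.3 in #4, 23.1 in #7, 6.16 in #6, 4.92 in #10 and was listed at 0 in #9. Resistant cells held 9263 in line #3, 3036 in #6 and 2325 in #4, which is 263, 493 and 88.3 times the parental value. Resistant line #10 held 34.5, and lines #7 and #9 were listed at 0. Line #9 was listed at 0 in all 4 states. The log2 difference of 3.52 ± 2.31 (SE, n = 6, limma adjusted p = 0.335) has a 95% interval from -1.30 to 8.34.

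Between the states Aldh1a7 differed in the same direction as its neighbour Aldh1a1 in lines #3, #4, #6 and #7 and in the opposite direction in #9 and #10. Resistant Aldh1a7 was higher than parental in line #3 (126 against 47.3), #4 (463 against 44.5) and #6 (38.3 against 24.6). It was lower in #7 (8.14 against 326), #9 (7.53 against 14.6) and #10 (28.3 against 144), where Aldh1a1 was 9.88 times higher. The 3 lines with higher Aldh1a7 were those with the highest resistant Aldh1a1, and how reads of the shared stretches were assigned was not tested. Its log2 difference of -0.50 ± 1.38 (SE, n = 6, limma adjusted p = 0.852) has a 95% interval from -3.39 to 2.40, and without line #7 it was 0.44.

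Per kilobase of the longest transcript, the shares of the 3 retinaldehyde dehydrogenases differed between parental and resistant cells. Their summed level per kilobase went from 204 to 12168.0 in line #3, from 144 to 14064 in #4, from 193 to 7523 in #6 and from 289 to 2624 in #10. In line #7 it went from 263 to 103, and in #9 from 41.6 to 38.5. Aldh1a3 made up 64.2% of this sum in parental line #3 and 0.0208% in resistant line #3. In line #9, where the sum hardly moved, its share went from 79.1% to 13.5%, with Aldh1a1 making up the rest. In line #7 the Aldh1a3 share went from 36.0% to 1.52%. The share of Aldh1a3 was thus lower in resistant than in parental cells in each of the 6 lines, including line #10, where it was 8.14% and 0.147%.

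**Figure D2:**
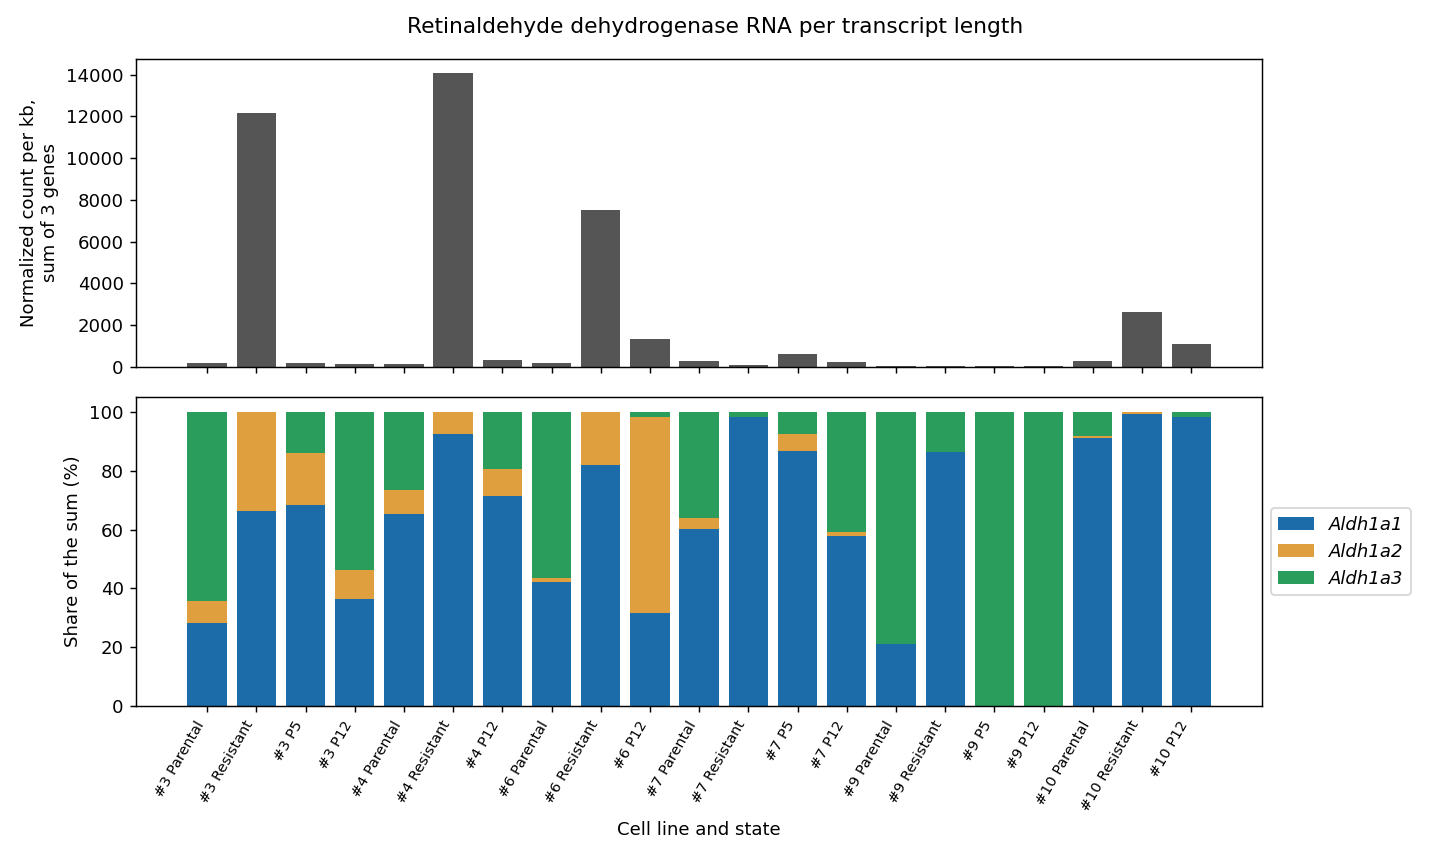
Summed level of Aldh1a1, Aldh1a2 and Aldh1a3 (normalized count per kilobase, top) and the share of each gene in that sum (percent, bottom) in 21 samples. Aldh1a1 and Aldh1a2 make up nearly all of the sum in resistant lines #3, #4 and #6, and Aldh1a3 makes up 100% of it in P5 and P12 of line #9.

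Aldh2 was the most uniform member in resistant cells. Parental Aldh2 was 16754 in line #10, 12552 in #7, 10390.1 in #6, 8738 in #9, 7571 in #4 and 6632 in #3. Resistant values were 2857, 2361, 2386, 2588, 2318 and 2180.0 in the same order. The parental range thus closed to a narrow band far under its lowest value. The decrease was 5.86 times in #10, 5.32 in #7 and 4.36 in #6, and between 3.04 and 3.38 times in the other lines. The log2 fold change was -2.03 ± 0.30 (SE, n = 6, limma adjusted p = 0.000256) with a 95% interval from -2.65 to -1.40, and it was called in 15 of 15 alternatives. Per kilobase, Aldh2 had the highest median of the 10 members in parental cells (2473), ahead of Aldh3a2 (956), whose highest value of 1420 lay under the lowest Aldh2 value of 1715. In resistant cells its median of 614 was number 5 of the 10, next to Aldh1l2 (615), with overlapping ranges. Aldh1a1 ranked first there with a median of 4389, though its values ran from 33.3 to 13029, a range that includes every resistant value of Aldh2, Aldh3a2 and Aldh7a1.

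Aldh3a1, which oxidises aromatic and medium-chain aldehydes, fell in 5 of 6 lines. Parental Aldh3a1 was 6612 in line #10, 5512 in #7, 1826 in #3, 1083 in #9, 409.7 in #6 and 185 in #4. Resistant values were 34.4, 31.6, 6.20, 229.9, 50.4 and 275 in the same order. The decrease reached 294 times in #3, 192 times in #10 and 174 times in #7, while line #4 was 1.49 times higher. The groups overlapped through line #4 and through resistant line #9, whose 229.9 lies above the parental value of line #4. The log2 fold change was -4.60 ± 0.95 (SE, n = 6, limma adjusted p = 0.00313). The call was lost without line #3 (adjusted p = 0.0291), #6 (0.0116), #7 (0.0160) or #10 (0.0160), and with only parental and resistant samples in the fit (0.0125).

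Its neighbour Aldh3a2, the fatty aldehyde dehydrogenase, was 1924 to 4389 in parental and 1785 to 3356 in resistant cells, with medians of 2956 and 2585. It was higher in 3 lines and lower in 3. Its log2 difference of -0.20 ± 0.30 (SE, n = 6, limma adjusted p = 0.714) has a 95% interval from -0.83 to 0.43, which ends short of the log2 decrease of Aldh3a1.

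The folate enzymes differed from each other. Aldh1l1, the cytosolic 10-formyltetrahydrofolate dehydrogenase, was 1445 in parental line #7, 511 in #3, 459 in #10, 143 in #9, 101 in #4 and 59.6 in #6. Resistant values were 36.4, 59.9, 7.69 and 57.2 in the first 4 of these lines, line #4 was listed at 0 and line #6 was at 12.7. Every line was lower in the resistant state, by 59.6 times in #10, 39.7 times in #7 and 2.51 times in #9. The groups met at one point, resistant line #3 (59.9) and parental line #6 (59.6). The log2 difference of -4.03 ± 1.54 (SE, n = 6) did not pass the unblocked test (limma adjusted p = 0.0824) and was called with the cell line as a block (adjusted p = 0.00893).

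Aldh1l2, the mitochondrial counterpart, stood higher in resistant cells in 5 of 6 lines. Parental Aldh1l2 was 354 in line #3, 394 in #4, 413 in #6, 304 in #7, 2370.1 in #9 and 51.4 in #10, and resistant values were 2544, 4874, 6529.9, 89.1, 7118 and 99.7. Lines #6, #4 and #3 were 15.8, 12.4 and 7.19 times higher and line #7 was 3.41 times lower. The ranges of the states overlapped. At 1.87 ± 1.14 (SE, n = 6, 95% interval -0.52 to 4.26), the log2 difference did not pass the test (limma adjusted p = 0.297, and 0.0580 with the block).

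Aldh7a1, of lysine breakdown, lies on chromosome 18 (56509687 to 56572951). It was between 2072 and 4477 in parental and between 1657 and 4957 in resistant cells. It was higher in lines #3, #4 and #6 and lower in #7, #9 and #10. The log2 difference was 0.06 ± 0.29 (SE, n = 6, limma adjusted p = 0.915) with a 95% interval from -0.55 to 0.68. Line #7 was the line in which resistant Aldh1a1, Aldh1a7, Aldh1l2 and Aldh7a1 were all lower than parental, and resistant line #7 also had the lowest fibroblast marker sum (1912) and the highest ductal marker sum (210019) of the 6 resistant samples. The part of these marker levels in the line's values was not tested.

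**Figure D3:**
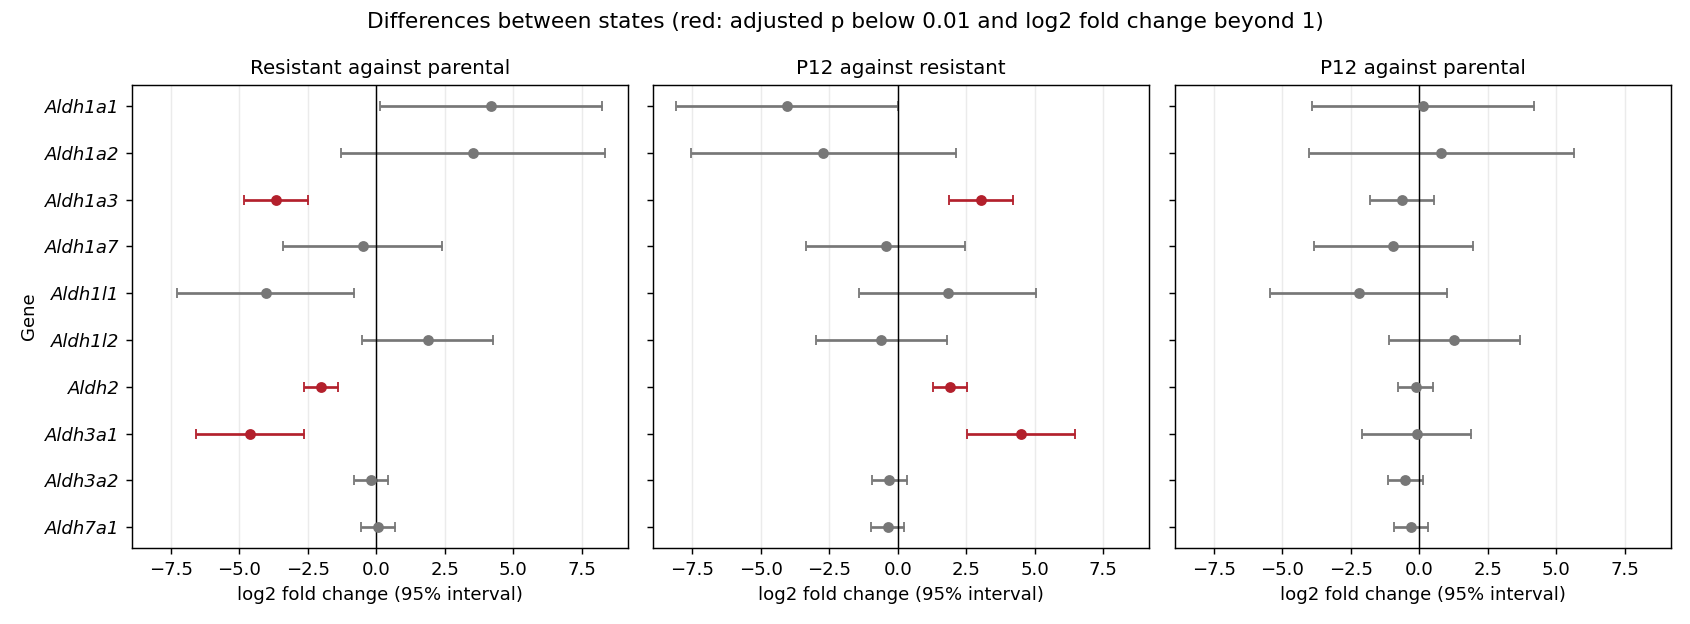
Log2 fold changes of the 10 genes with 95% intervals, from the fit without the block, in 3 comparisons of 6 against 6 samples. Called genes are in red. Aldh1a3, Aldh2 and Aldh3a1 are red on the left (lower in resistant cells) and in the middle (higher in P12), and no gene is red in the comparison of P12 with parental cells.

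P12 cells were compared with resistant cells to see which of these levels moved after drug withdrawal. Aldh2, Aldh1a3 and Aldh3a1 rose, each in 6 of 6 lines and without overlap between the groups. By the same rule 3 of 10 members were called, all higher, against 2.13% of all genes tested in either direction and 1.28% higher, groups without overlap were found for 2.45% and the same direction in all 6 lines for 16% of all genes. The comparison uses the same resistant samples as the first one, so that a resistant sample that stands out moves both.

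P12 Aldh2 was 6822 in line #3, 8833 in #4, 8362 in #6, 16833 in #7, 5798 in #9 and 11433 in #10, between 2.24 and 7.13 times the resistant value. The log2 fold change was 1.90 ± 0.30 (SE, n = 6, limma adjusted p = 0.00100), and it was called in 15 of 15 alternatives. P12 Aldh1a3 was 213, 229.9, 69.3, 346, 64.6 and 60.8 in the same order, from 2.07 times the resistant value in #6 to 64.5 times in #7. Its log2 fold change was 3.03 ± 0.56 (SE, n = 6, limma adjusted p = 0.00290). Without line #3, #4 or #7 the adjusted p was 0.0267, 0.0155 or 0.0194, and it was 0.0186 with only both states in the fit.

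P12 Aldh3a1 was 831 in line #3, 1558 in #4, 1425 in #6, 344 in #7, 821 in #9 and 7068 in #10. All 6 values lay above the highest resistant value of 275. The log2 fold change was 4.50 ± 0.95 (SE, n = 6, limma adjusted p = 0.00720). The call was close to the threshold, since leaving out any 1 of the 6 lines gave an adjusted p between 0.0101 (without #4) and 0.0452 (without #3).

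Aldh1a1 was lower in P12 than in resistant cells in 5 of 6 lines but did not pass the test. P12 Aldh1a1 was 98.3 in line #3, 583 in #4, 986 in #6, 335 in #7 and 2553 in #10, and line #9 was listed at 0. Line #3 was thus 194 times and line #4 52.7 times under the resistant value, and line #7 was 1.41 times above it. The log2 difference was -4.05 ± 1.94 (SE, n = 6, limma adjusted p = 0.253, and 0.0276 with the block). P12 Aldh1a2 was 26.3 in line #3, 72.7 in #4, 2001 in #6 and 6.15 in #7, and was listed at 0 in #9 and #10. Line #6 thus kept Aldh1a2 near its resistant level of 3036 and at 325 times its parental value, while lines #3 and #4 were 352 and 32.0 times under their resistant values. Aldh1a2 accordingly made up 66.9% of the retinaldehyde dehydrogenase sum per kilobase in P12 of line #6, and at most 10.1% in the P12 samples of the other lines. The log2 difference of Aldh1a2 was -2.72 ± 2.31 (SE, n = 6, limma adjusted p = 0.575).

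The remaining members did not pass the test between P12 and resistant cells. Aldh1l1 in P12 was 773 in line #3, 367 in #7, 286 in #10 and 82.8 in #6, 6.51 to 37.2 times the resistant values of those lines. It was listed at 0 in line #4 and was under the floor, at 3.54, in #9. The log2 difference was 1.82 ± 1.54 (SE, n = 6, limma adjusted p = 0.573). Aldh1l2 was lower in 4 lines and higher in #7 and #10, with a log2 difference of -0.60 ± 1.14. Aldh3a2 and Aldh7a1 were each lower in 5 of 6 lines, with log2 differences of -0.31 ± 0.30 and -0.37 ± 0.29. Aldh1a7 was lower in 4 lines, with 199 in line #7 and 376 in #10 against 8.14 and 28.3 in resistant cells.

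P12 was also compared with parental cells, to see which levels differed after resistance had been acquired and lost. No member was called (0 of 10 with limma), against 0.114% of all genes tested, and 0 of 10 had an unadjusted p below 0.05. The median log2 difference of the members was -0.22, compared with 0.03 over all genes. The intervals show what size of difference the fit without the block could leave unseen, and that fit does not pair the lines. With the block the SE was smaller for each member except Aldh3a1. It was 1.12 instead of 1.94 for Aldh1a1 and 0.21 instead of 0.30 for Aldh2. For Aldh2 the log2 difference of -0.13 has a 95% interval from -0.76 to 0.50, and for Aldh3a2 and Aldh7a1 the intervals run from -1.13 to 0.12 and from -0.92 to 0.31. For Aldh1a3 (-0.64, interval -1.80 to 0.53) and Aldh3a1 (-0.09, interval -2.07 to 1.88) they are wider. For Aldh1a1, Aldh1a2, Aldh1a7, Aldh1l1 and Aldh1l2 they extend beyond 3 log2 units on at least one side.

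Single lines differed from their parental cells in P12 all the same. Aldh1a1 was 5.13 times higher in line #6, 4.11 times in #10 and 2.63 times in #4, and in line #9 it was 20.5 in parental cells and listed at 0 in P12. Aldh1l1 in line #4 was 101 in parental cells and listed at 0 in both resistant and P12 cells. Each of these rests on 1 library per state and was not tested.

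P5 was sequenced in lines #3, #7 and #9, and these 3 samples share their resistant, parental and P12 samples with the comparisons above. P5 Aldh2 was 5696 in line #3, 19721 in #7 and 5368 in #9, above all resistant values, with the value of line #7 the highest of all 21 samples. The log2 difference to resistant cells was 1.79 ± 0.37 (SE, 3 against 6 samples, limma adjusted p = 0.0150), and it was called with the cell line as a block (adjusted p = 0.00262). P5 Aldh1a3 was 83.2, 159 and 60.1 in lines #3, #7 and #9, and P5 Aldh3a1 was 536, 289 and 871, in both cases above every resistant value. Their log2 differences were 2.56 ± 0.68 (limma adjusted p = 0.0576) and 3.23 ± 1.16 (adjusted p = 0.169).

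P5 Aldh1a1 was 281 in line #3, 67.6 times under its resistant value, 1255 in #7 and listed at 0 in #9. Line #7 was thus 5.26 times above its resistant cells. P5 Aldh1l2 was 3269 in line #3, above the resistant 2544, and 226 and 1646 in #7 and #9. No member was called between P5 and resistant cells without the block (0 of 10), against 0.378% of all genes, and 1 was called with it, against 0.611%. At an unadjusted limma p below 0.05 there were 4 of 10, and the share of all genes at that looser threshold is not given. Between P5 and parental cells 0 of 10 were called, against 0.0259% of all genes called. At an unadjusted limma p below 0.05 there was 1 (Aldh3a2), and the share of all genes at that looser threshold is not given. Between P5 and P12, 0 of 10 were called and 0 had an unadjusted p below 0.05, and limma called no gene of the 19300. With P5 of lines #7 and #9 left out, because of their labels, only P5 of line #3 remained, assumed to vary like the other states. Aldh2, Aldh1a3 and Aldh3a1 then stood 1.22, 2.40 and 3.29 log2 units above resistant cells (limma adjusted p = 0.323, 0.415 and 0.534), and no member was called in the comparisons with P5.

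The lines and the states took different shares of the variance of the members. Over parental, resistant and P12 samples, the state accounted for 84.6% of the sum of squares of log2 Aldh2, 74.5% of Aldh1a3 and 62.1% of Aldh3a1, and the line for 9.65%, 7.12% and 7.77%. For Aldh1l2, Aldh1a2 and Aldh1a1 the line accounted for 63.6%, 57.2% and 51.2%, and the state for 13.8%, 12.6% and 29.6%. Aldh1l1, Aldh1a7, Aldh3a2 and Aldh7a1 had line shares between 45.7% and 48.7%. The medians over all genes tested were 35.8% for the line and 19.8% for the state. Without the logarithm, the order changed for Aldh3a1, where the line took 40.04% and the state 22.6%, and for Aldh1a1, where they took 19.3% and 41.3%.

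**Figure D4:**
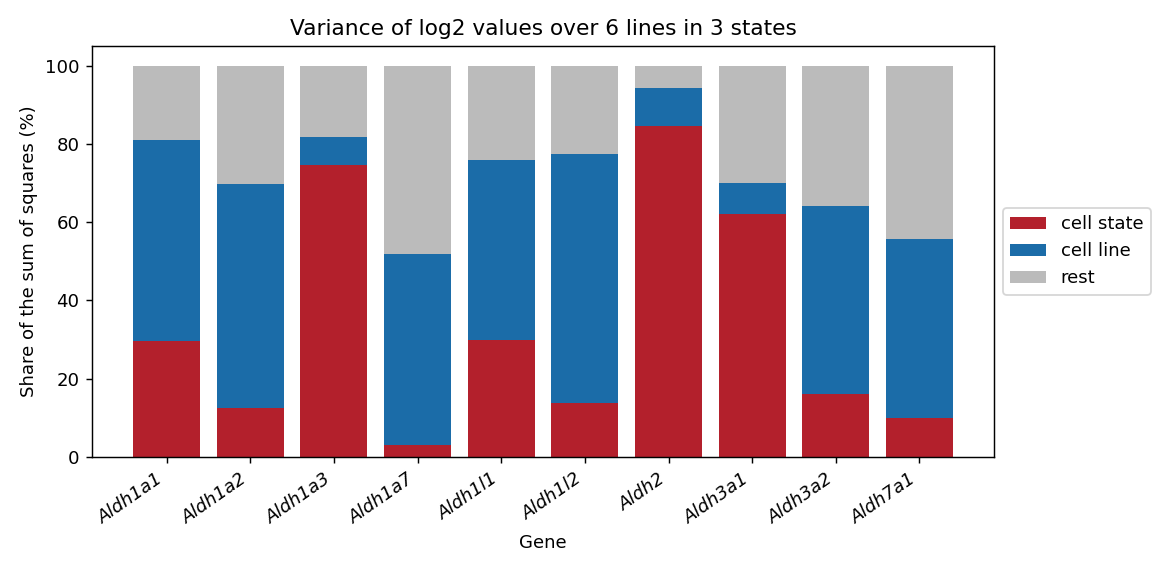
Share of the sum of squares of log2 values (percent) due to the cell state, the cell line and the rest, for each gene over 6 lines in parental, resistant and P12 states. The state share exceeds the line share for Aldh1a3, Aldh2 and Aldh3a1.

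The other 11 Aldh genes in the table served as a family background, and 8 of them passed the filter. None was called in resistant against parental cells (0 of 8 with limma), against 5.3% of all genes tested. At an unadjusted p below 0.05 there were 4 of the 8, and the share of all genes at that threshold is not given. Aldh16a1 was at a median of 1591 in parental and 778 in resistant cells, with a log2 difference of -0.94 ± 0.21 (limma adjusted p = 0.00625) that stayed under the fold threshold, and without line #7 it was called (-1.15, adjusted p = 0.00190). Mitochondrial Aldh1b1 was higher in resistant cells in 6 of 6 lines, with medians of 19.7 and 90.9. Its log2 difference was 2.64 ± 0.92 (limma adjusted p = 0.0564), and its parental value in line #3, 0.937, lay under the floor. Aldh5a1 and Aldh9a1 were lower in 6 of 6 lines. The same direction in all 6 lines was seen for 18.5% of all genes tested. Aldh6a1, of valine breakdown, had medians of 332 and 999 (log2 difference 1.63, adjusted p = 0.0619). Aldh5a1, of GABA breakdown, had medians of 244 and 82.7 (-1.64, adjusted p = 0.174). Aldh3b1 was higher in P12 than in parental cells in 6 of 6 lines, with medians of 1847 and 416. Its log2 difference of 1.81 ± 0.71 had an adjusted p of 0.230 and was called with the block (limma adjusted p = 0.00965). The share of all genes called in that blocked comparison is not given. Aldh9a1, Aldh4a1 and Aldh18a1 had log2 differences between resistant and parental cells of -0.55, -0.04 and 0.41 (adjusted p = 0.05, 0.939 and 0.296). Aldh3b2, Aldh3b3 and Aldh8a1 did not pass the filter, with highest values of 7.23, 16.4 and 8.57.

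The genes around retinoic acid were examined as 26 retinoid binding proteins, dehydrogenases, receptors and targets, of which 21 were tested. One was called between resistant and parental cells, against 5.3% of all genes tested. This was Rxra, the common partner of the retinoic acid receptors, which fell from a median of 1903 to 685 with a log2 fold change of -1.65 ± 0.34 (limma adjusted p = 0.00292). The call was lost without line #3, #4, #6 or #10 (adjusted p = 0.0132, 0.0118, 0.0202 and 0.0183). In the blocked fit, which called 10.5% of all genes, 4 of the list were called, namely Rxra, the retinol dehydrogenase Rdh10 (-3.40) and the retinol carrier Rbp4 (-5.27), all lower, and the transglutaminase Tgm2 (3.67), which was higher. The list's median log2 difference was -0.23, compared with 0.00 over all genes. Between P12 and resistant cells none of the 21 was called (3 at an unadjusted p below 0.05), and Rxra had a log2 difference of 1.37 (adjusted p = 0.0186), which was called without line #9 (1.78, adjusted p = 0.00334).

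Of 26 other carbonyl-metabolising enzymes 23 were tested, and 3 were called between resistant and parental cells, against 5.3% of all genes tested. Akr1c14, an aldo-keto reductase that acts on hydroxysteroids, rose from a median of 24.97 to 2827 (log2 fold change 6.48 ± 0.94, limma adjusted p = 0.000206). Akr1b8, an aldose reductase-like enzyme, fell from 4475 to 855 (-2.71 ± 0.38, adjusted p = 0.000158), and the formaldehyde pathway esterase Esd fell from 9680 to 3300 (-1.44 ± 0.28, adjusted p = 0.00219). The call of Esd was lost without line #6 or #10 (limma adjusted p = 0.0101 and 0.0166), and without single lines the list gave 2 to 3 calls. Between P12 and resistant cells none of the 23 was called without the block (7 at an unadjusted p below 0.05), against 2.13% of all genes called. With the block 2 were called, Akr1b8 (1.22) and Akr1c14 (-3.59), and the share of all genes in this blocked comparison is not given. Of 20 tested genes of folate one-carbon metabolism none was called between resistant and parental cells (8 at an unadjusted p below 0.05). With the block, which called 10.5% of all genes, 2 were called, the folate receptor Folr1 (5.63) and the glycine decarboxylase Gldc (-4.41). Of 15 targets of the oxidative stress factor NRF2 none was called (6 at an unadjusted p below 0.05) and 3 were called with the block, the haem oxygenase Hmox1 (2.04) higher and Nqo1 (-2.91) and Ugdh (-1.93) lower. The median log2 differences of the carbonyl, folate and NRF2 lists were -0.18, -0.23 and -0.77. Between P12 and resistant cells 0 of the folate genes (6 at an unadjusted p below 0.05) and 0 of the NRF2 targets (1) were called without the block. Hmox1 was called with it (-2.10), again without a share of all genes to set beside it.

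The genes whose log2 pattern was most like that of a member over the 21 samples were ranked by Pearson correlation, as a description over samples that share lines, states and depth. Closest to Aldh2 were Ivl (r = 0.940), Irf2bp2 and Sec1, to Aldh1a3 Prss22 (0.889), 5031415H12Rik and Tspan1, and to Aldh3a1 the interleukin receptor gene Il1r1 (0.838), Gm37706 and Zfp688. Closest to Aldh1a1 were Iqsec1 (0.915), Tmc6 and Slc4a2, to Aldh1a2 Cpz (0.897), Lrrn4 and Dpp4, and to Aldh1a7 Armc10 (0.864), Mettl7a1 and Klc4. Closest to Aldh1l1 were 4933421A08Rik (0.903), Galnt7 and Galntl6, and to Aldh1l2 Hdgfl3 (0.922), the collagen gene Col3a1 (0.880) and Ssc5d. Closest to Aldh3a2 were Pepd (0.885), Psca and the glutamine synthetase gene Glul, and to Aldh7a1 Sema3b (0.816), Mut and Bmp6. No member was among the 3 closest genes of another.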

How the data were processed

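RNA of 6 murine pancreatic cancer lines was analysed in 4 states (21 samples). The deposited table holds signal values: gene-level counts that the authors quantified with Salmon 0.12 and normalized with DESeq2 1.18. Salmon estimates need not be whole, and 69.1% to 78.9% of low values lay within 0.1 of a multiple of one step per sample, so whole reads were not recovered and no count model was used. Depth was estimated from that step. Groups and lines came from the labels. One further allele that all samples share is not reported here. The study names more than 1 sequencer without assigning samples, so values within sequencing batches could not be computed.

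Log2 values (pseudocount 1) of 19300 genes with at least 10 in at least 3 samples were fitted with limma 3.58.1 (R 4.3.3, eBayes with trend), and the steps were tested on simulated data. The simulated samples were independent, without an effect of the cell line, so that test does not cover the pairing of lines. Lines pair the states, because same-numbered samples are one cell line. The mean correlation of their deviations was 0.241 (parental and resistant) and 0.457 (resistant and P12), against -0.05 and -0.09 between lines. The members and gene lists were chosen with earlier results of these data known. The text names all Aldh genes, the 2 largest called rises and falls of each list in resistant against parental cells and the 3 genes most like each member. Genes called in lists only with the block, the markers and the genes of ERK output were named after their values were seen. P-values measure the spread between lines sequenced once per state. Shares of all genes called with the block are given only for resistant against parental and P5 against resistant cells. No share of all genes is given at an unadjusted p below 0.05, so counts at that threshold describe the named genes only. Per-kilobase levels used the longest GENCODE M21 transcript. Motifs were searched on both strands. Strand settings of the quantification are not given in the sources used here, so reads of overlapping antisense genes were not separated here.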

Additional observations from a re-analysis of the deposited data

Results flagged for a closer look

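Groups of 6 samples, each a member in one state, were checked on log2 values for a single distant value (Dixon). In 2 of 30 groups the extreme sample stood apart from the others, which chance does in about 1 in 20 groups. The values given here are normalized counts, on which the gaps differ from those in log2. Aldh3a2 in P12 of line #10 was 5023, where the next value was 1889 and the lowest 1250. Aldh7a1 in P12 of line #7 was 1270, where the next value was 2397 and the highest 3111. Neither gene was called in a comparison with P12.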

How the results depend on the processing

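Of 894 log2 differences of the members recomputed under another setting, 836 kept their direction and their side of the threshold, 18 kept the direction but lost the call, 3 gained it and 37 turned their direction. The blocked fit, with lines pairing the states, changed no call of a member other than those of Aldh1l1 (resistant against parental, -4.03) and Aldh2 (P5 against resistant, 1.87, also called after rescaling to the upper quartile, 1.86). Members called in P12 against resistant were 1 with only those states in the fit and 1 to 2 without single lines (1 without #3, #4 or #7), and in P5 against resistant 1 at an adjusted p below 0.05, 1 after rescaling and 1 with the block. Without single lines the called genes ranged, in resistant against parental, from 0 to 1 for the other Aldh genes, 0 to 3 for the retinoid and folate lists and 0 to 2 for NRF2 targets, and in P12 against resistant from 0 to 1 for the retinoid and NRF2 lists. The retinoid list gave 3 with a filter on a mean of at least 100, and NRF2 targets gave 1 with only the compared states in resistant against parental and 1 without P5 in this comparison and in P12 against resistant. The block gave 4 retinoid, 2 folate and 3 NRF2 calls in resistant against parental and 2 carbonyl and 1 NRF2 calls in P12 against resistant.

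The values that turned direction all missed the threshold. They were Aldh1a1 in P12 against parental with a pseudocount of 0.5 (-0.036), Aldh1a1 in P5 against parental (0.52 with the block, 0.69 without P5 of #7 and #9) and in P5 against P12 (0.39 and 0.56), Aldh1l2 in P5 against resistant without these P5 samples (1.31), Aldh7a1 in P5 against P12 without them (0.22), Aldh1a2 in P5 against P12 with a pseudocount of 8 (-0.12) and Aldh1l1 there with the block (-0.48). The exclusion of these P5 samples was chosen after seeing the data. Without single lines the log2 differences ranged as follows, with the sign turning in each: in resistant against parental Aldh1a7 -1.26 to 0.44, Aldh7a1 -0.14 to 0.26, in P12 against resistant Aldh1a7 -1.42 to 0.18, in P12 against parental Aldh1a1 -0.32 to 1.04, Aldh1a2 -0.66 to 1.48, Aldh3a1 -0.73 to 0.69, in P5 against resistant Aldh1l2 -1.04 to 0.16, in P5 against parental Aldh1a1 -3.17 to 1.16, Aldh1l1 -2.27 to 0.25, Aldh2 -0.78 to 0.057, and in P5 against P12 Aldh1a1 -3.35 to 0.12, Aldh1a2 -1.31 to 1.40, Aldh1l1 -0.47 to 1.90, Aldh1l2 -0.49 to 1.08, Aldh2 -0.54 to 0.10. The causes were not tested. Levels under about 4.07 normalized counts could not be told from 0 at this depth.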
